A study of Rattus norvegicus with 30 samples.

Results

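The genes described here encode matrix proteases, cathepsins and their inhibitors. They were taken by gene symbol, as every name that begins with Mmp, Adam or Timp followed by a number, with Adamts, with Cts, or with Serpin, a clade letter from a to i and a number. Values of the same name were summed. This gave 67 of the 9999 gene names, and all 67 were current RefSeq symbols of the rat. Their RNA was measured in bone marrow mesenchymal stem cells (BMSCs) of Sprague Dawley rats. The cells came from the femurs and tibiae of 3 female animals aged 3 weeks and were used at passage 2. The 30 samples formed 10 groups of 3, namely undifferentiated cells (CON, t = 0 h) and cells kept for 3, 12 or 72 h (the last labelled as day 3) in commercial media for osteogenesis (OS), adipogenesis (AD) or chondrogenesis (CH). Each sample was a pool of 3 cultures, and no genetic change was made in any group. All comparisons with 0 h share the same 3 samples, and no uninduced cells from 3, 12 or 72 h were used here.

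Matrix metalloproteinases (MMPs) are zinc enzymes that cut collagens and other proteins of the extracellular matrix, and the tissue inhibitors of metalloproteinases (TIMPs) block them. ADAMs are membrane proteases that release the outer parts of other membrane proteins, and the secreted ADAMTS enzymes cut proteoglycans such as aggrecan and versican or trim procollagens. Cathepsins work mostly in lysosomes, and serpins are a large family that mainly inhibits serine proteases. Osteoblasts, adipocytes and chondrocytes each build a matrix of their own, and these enzymes are known for their part in replacing one matrix by another.

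The deposited values were read counts scaled to the depth of each sample (CPM), in which 1 read was worth the same for every gene of a sample, so levels are compared between groups for a given gene and not between genes. The totals behind them were 3899609 to 9046719 reads per sample (median 6579543), and 3 reads, taken as the floor of detection, were 0.332 to 0.769 CPM. That floor and the counting intervals given for low genes cover counting error only. Of the BMSC markers, Thy1, Cd44 and Itgb1 were above 200 CPM in every group, but Thy1 was at 387.1 to 461.7 CPM at 72 h of adipogenesis against 7736 to 8280 CPM at 0 h, and the summed list (6 of 7 listed) at 4110 to 4778 CPM against 16080 to 16890 CPM. At 72 h of chondrogenesis Thy1 had 2243 to 2579 CPM and the summed list 9106 to 9584 CPM. At 72 h of osteogenesis they had 3638 to 3788 CPM and 15630 to 17100 CPM. Eng, Alcam and Vcam1 were listed at 0 or close to it, with at most 7 reads summed over a group. The markers of macrophages and other blood cells (3 of 12 listed) summed to 2.38 to 4.08 CPM at 72 h of adipogenesis, 0 to 0.418 CPM at 0 h and at most 1.55 CPM elsewhere, the osteoclast list (1 of 5 listed) to at most 2.32 CPM, and the endothelial list (4 of 6 listed) to 0.74 to 7.08 CPM. Of all libraries, AD 72 h replicate 3 stood furthest from the others of its group, with 74 tested genes more than 2 log2 units from the mean of the other 2, followed by AD 12 h replicate 1 (24 genes) and OS 3 h replicate 3 (18 genes). In bulk samples, fewer cells of a type and less RNA per cell cannot be told apart.

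Of the 67 members, 32 had at least 1 CPM in at least 3 samples and were tested with limma on log2(CPM + 1), together with all 4363 genes that passed this filter. Calls of differential expression needed a change of 1 log2 unit or more, up or down, together with a Benjamini-Hochberg adjusted p under 0.05 over all 4363 genes. The p-values measure the spread between these samples, and a log2(CPM + 1) fold change understates the change of low genes. Adam11, Adamts3, Adamts17, Serpinb6b and Serpinc1 would not have passed the filter without the samples of 1 of the groups in which they were high, so counts over the tested members are descriptions. The 35 members that were not tested had at most 2.49 CPM in any sample. Among them were all of the clade A serpins listed (a clade with inhibitors of blood proteases and hormone carriers), 4 of the 7 ADAM sheddases, and 3 of the 4 stromelysins and matrilysins. A total of 19 members never exceeded 3 reads in a sample, and 17 exceeded 3 reads in all 30. Adam10, a sheddase known from most cell types, was listed at 0 in 29 of 30 samples, and Ctsa, a widely expressed lysosomal carboxypeptidase, at no more than 4 reads in any sample. As Eng, Alcam and Vcam1 are also known from BMSCs, a value listed at or near 0 does not show that a gene was not expressed. Timp4, a TIMP of restricted tissue range, never exceeded 1 read. Mmp3, Mmp9, Mmp14, Timp1, Timp3, Adam12, Adamts5, Ctsk and Serpine2 were not analysed here.

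Of the 32 tested members, 23 were differentially expressed in at least 1 of the 9 comparisons with undifferentiated cells, as were 53.2% of all tested genes, and none in all 9. Adamts1, Adamts4 and Adamts8, which encode enzymes that cut proteoglycans, and the complement inhibitor gene Serping1 held 28 of the 67 calls, and all but Adamts1 were called in both directions. At 3 h of osteogenesis, 1 member was upregulated (11.7% of all tested genes were) and 4 were downregulated (6.67%). The counts were 2 up (14.7%) and 7 down (7.15%) at 12 h, and 2 up (7.2%) and 3 down (5.29%) at 72 h. In adipogenesis they were 5 up (12.4%) and 4 down (6.42%) at 3 h, 3 up (8.14%) and 2 down (5.55%) at 12 h, and 5 up (6.19%) and 5 down (9.08%) at 72 h. Chondrogenesis had 3 up (13.1%) and 5 down (4.88%) at 3 h, 3 up (9.44%) and 4 down (5.0%) at 12 h, and 5 up (11.6%) and 4 down (6.37%) at 72 h. As shares of the 32 tested members, the upregulated ones ran from 3.12 to 15.6% and the downregulated ones from 6.25 to 21.9%. The share downregulated lay above that of all tested genes in all 9 comparisons, but these share the 0 h samples and often the same members. Of the 38 downregulated calls, Adamts1 and Serping1 held 7 each, Ctsf 5 and Mmp2 4. At 12 h of adipogenesis the share was close to the background, with 6.25% against 5.55%. At 72 h it rested on 3 members for OS, 5 for AD and 4 for CH. The shares there were 9.38%, 15.6% and 12.5%, against 5.29%, 9.08% and 6.37% of all tested genes. Whether the excess goes beyond chance was not tested in any of the 9 comparisons. The median log2 fold change of the members was below that of all tested genes in 8 of these comparisons, from -0.33 against 0.21 at 3 h of chondrogenesis to -0.04 against 0.01 at 72 h. At 72 h of adipogenesis it was above, at 0.15 against -0.05.

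**Figure D1:**
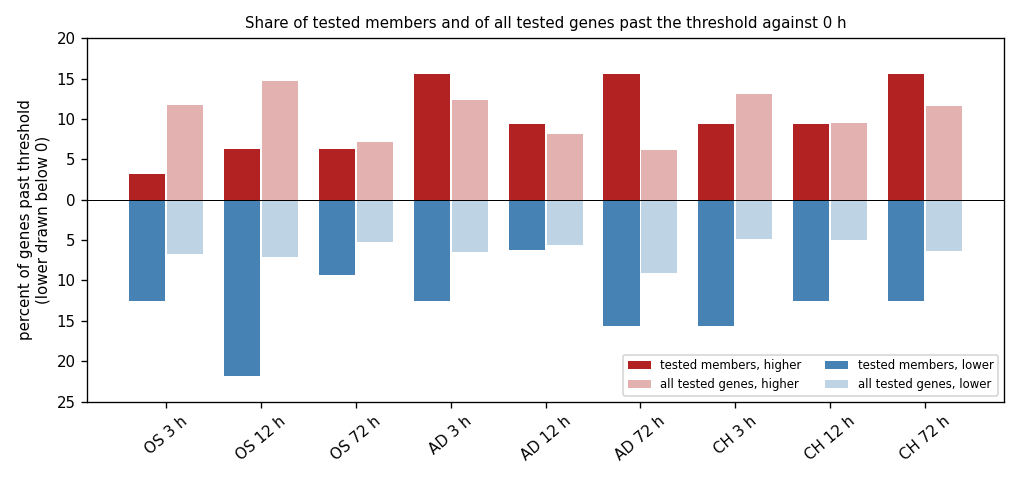
Percent of the 32 tested members (dark bars) and of all 4363 tested genes (light bars) that passed the threshold against 0 h, upregulated above the line and downregulated below it. The members reach 21.9% downregulated at 12 h of osteogenesis, where all tested genes reach 7.15%.

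The summed direction of these calls moved with the scaling. As deposited, 29 of the 67 calls were upregulated and 38 downregulated, and after quantile normalization the split was 25 to 51. Without rescaling, the median of all tested genes itself stood 0.01 to 0.21 above 0 h in 8 comparisons on the log2 scale, and 0.05 below it at 72 h of adipogenesis.

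**Figure D2:**
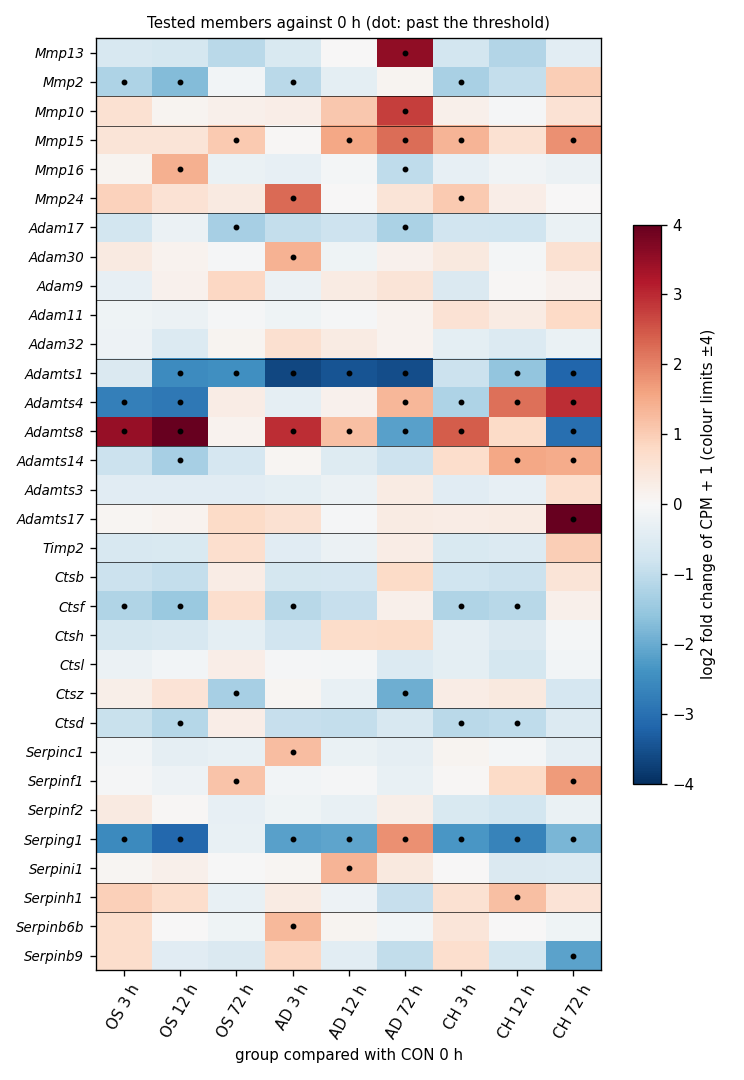
Log2 fold changes of CPM + 1 against 0 h for the 32 tested members, ordered by role, with 1 column per group. Dots mark calls and colours end at 4 in size, so the values of 6.13 for Adamts17 and of 3.99 for Adamts8 have the darkest red. The row of Adamts1 is blue throughout, and those of Adamts4, Adamts8 and Serping1 hold both colours.

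Among the collagenases and gelatinases, Mmp2 and Mmp13 passed the filter. Mmp13, which encodes the collagenase that cuts the collagen of cartilage and bone, was near the floor in most samples and well above it at 72 h of adipogenesis. The samples of that group had 53.6, 64.4 and 3.96 CPM, against 0.859, 1.11 and 1.82 CPM at 0 h. All 3 were above every 0 h sample, but replicate 3 was far below the other 2. The log2 fold change was 3.55 (SE 0.54, adjusted p = 4.31e-06). With the 3 libraries that stood apart left out, replicate 3 of this group among them, it was 4.74. That choice was made after seeing the data and removes the sample that differed, so no p is given for it. No other group exceeded 2.22 CPM in a sample. At 72 h of osteogenesis 1 read was found in the 3 samples together, and at 12 h of chondrogenesis Mmp13 was listed at 0 in all 3, neither of which passed the test against 0 h in limma (adjusted p = 0.148 and 0.103), although both did in edgeR (adjusted p = 0.0292 and 0.00925).

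Mmp10, which encodes a stromelysin, was the other secreted MMP upregulated at 72 h of adipogenesis. Its values there were 9.79, 11.0 and 2.53 CPM, with replicate 3 again the lowest. At 0 h 1 sample had 0.43 CPM and the others were listed at 0. The log2 fold change was 2.77 (SE 0.43, adjusted p = 4.76e-06), and the pooled reads stood at 133 against 3, a ratio of 52.4 with a 95% counting interval of 17.5 to 257.2 (Clopper-Pearson). At 12 h of adipogenesis the samples had 0, 1.66 and 4.07 CPM and overlapped those of 0 h. The blood cell marker sum was also highest at 72 h of adipogenesis, with Lyz2 at 1.42, 1.24 and 2.06 CPM (0 reads at 0 h), Adgre1 at 1.60, 2.84 and 0.317 CPM (0 reads at 0 h) and Csf1r at no more than 1 read, and the BMSC marker sum was lowest there. Replicate 3 was the lowest of the 3 for Adgre1, as for Mmp13 and Mmp10, and the highest for Lyz2. The part of either in the Mmp13 and Mmp10 levels was not tested.

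The rat Mmp13 and Mmp10 genes lie in 1 cluster on chromosome 8, and their promoters are shown because both genes were upregulated in the same group and hold the same pair of motifs. The sequences are RefSeq's for assembly GRCr8, plus strand, 5′ to 3′, from 110 bases before the annotated gene start to 20 bases after it, with the AP-1 motif TGANTCA and the TATA box TATAAA in capitals. Mmp12 and Mmp7 of the same cluster are shown for comparison, since theirs are the other 2 promoters of members with both motifs. The windows are chr8:12782719-12782848 for Mmp13, chr8:12974597-12974726 for Mmp10, chr8:12866542-12866671 for Mmp12 and chr8:13132933-13133062 for Mmp7.
Mmp13: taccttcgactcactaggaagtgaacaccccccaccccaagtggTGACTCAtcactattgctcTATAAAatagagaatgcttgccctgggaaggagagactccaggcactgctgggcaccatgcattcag
Mmp10: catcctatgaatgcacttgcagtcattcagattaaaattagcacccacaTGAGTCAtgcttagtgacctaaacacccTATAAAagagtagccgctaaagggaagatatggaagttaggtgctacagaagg
Mmp12: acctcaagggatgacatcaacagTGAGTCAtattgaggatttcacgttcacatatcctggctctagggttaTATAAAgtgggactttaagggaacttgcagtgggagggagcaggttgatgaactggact
Mmp7: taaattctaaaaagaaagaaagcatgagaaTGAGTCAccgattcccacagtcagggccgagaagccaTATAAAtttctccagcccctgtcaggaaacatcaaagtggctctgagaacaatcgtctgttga

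The AP-1 motif began 66 bases before the gene start in Mmp13, 61 in Mmp10, 87 in Mmp12 and 80 in Mmp7. In windows of 250 bases before to 50 after the gene start, searched on both strands, it was found in 7.33% of 33469 RefSeq promoters and in 7 of the 52 members with a promoter entry. The TATA box stood in 14.2% of all promoters and 9 members, and both motifs together in 1.36% and in these 4 members. At 72 h of adipogenesis Mmp13 had 301, 363 and 25 reads and Mmp10 had 55, 62 and 16. Mmp12, the macrophage elastase, had 14, 3 and 0 reads there, 17 in all against at most 8 in any other group, and Mmp7, matrilysin, had 0 in all 3 samples. Mmp27 of the same cluster is not among the members with either motif, but only 52 of the 67 had a promoter entry. It had 10, 6 and 1 reads, 17 in all against at most 13 in any other group. Mmp12, Mmp7 and Mmp27 did not pass the filter. The glucocorticoid receptor motif AGAACA was in 20.7% of all promoters and in 12 members, but not in the Mmp13 or Mmp10 window. A match is a run of letters and no evidence of binding.

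Mmp2, the gelatinase that also cuts type IV collagen and is activated at the cell surface, was lower than 0 h in every sample of 3 and 12 h. At 0 h its level was 15810, 15660 and 16220 CPM. It was 6038, 5854 and 8836 CPM at 3 h and 4547, 5026 and 4753 CPM at 12 h of osteogenesis, and returned to 14840, 14250 and 15400 CPM at 72 h. The values at 3 and 12 h were all below those of 0 h, by 1.23 (SE 0.18) and 1.74 (SE 0.18) on the log2 scale (adjusted p = 1.36e-06 and 2e-09), while at 72 h the log2 fold change was -0.10 (adjusted p = 0.758). At 3 h Mmp2 was also downregulated in adipogenesis (log2 fold change -1.09, adjusted p = 1.03e-05) and chondrogenesis (-1.28, adjusted p = 7.01e-07). The size of all 3 changes at 3 h fell under the threshold after quantile normalization, to -0.87 in osteogenesis, -0.72 in adipogenesis and -0.35 in chondrogenesis. At 72 h of chondrogenesis the samples had 33700, 30960 and 29410 CPM, above those of every other group, but the log2 fold change against 0 h, 0.98 (SE 0.18, adjusted p = 4.93e-05), stayed just under the threshold of size and was 0.10 after quantile normalization.

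Timp2, which encodes the inhibitor that binds MMP2 and takes part in its activation, was the only TIMP tested. Its level was 3436, 3433 and 3940 CPM at 0 h and lower at 3 and 12 h of every lineage, from 2110 to 3104 CPM in the samples. At 72 h it was 6155, 5413 and 5791 CPM in osteogenesis, 4526, 5568 and 3386 CPM in adipogenesis, and 7605, 7042 and 6690 CPM in chondrogenesis. No comparison with 0 h passed the threshold, the nearest being 72 h of chondrogenesis (log2 fold change 0.98, SE 0.13, adjusted p = 2.22e-07). From 12 to 72 h Timp2 was upregulated in osteogenesis (1.29, SE 0.13) and in chondrogenesis (1.53, SE 0.13).

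All 3 membrane-type MMPs among the members, which are held at the cell surface, passed the filter at low levels. Mmp15 had 1 read in each 0 h sample (0.139 to 0.152 CPM). It was upregulated in 5 comparisons with 0 h, and the highest values were 3.56, 8.16 and 2.85 CPM at 72 h of adipogenesis (log2 fold change 2.25, SE 0.31, adjusted p = 7.89e-07). Over the pooled reads that was 84 against 3, a ratio of 33.1 with a counting interval of 10.9 to 163.6. Its samples had 4.36, 4.2 and 1.33 CPM at 72 h of chondrogenesis (log2 fold change 1.81, adjusted p = 1.91e-05). The other calls were at 12 h of adipogenesis (1.54), 3 h of chondrogenesis (1.37) and 72 h of osteogenesis (1.04), the last of which fell to 0.85 or 0.87 and out of the calls without replicate 2 or replicate 3 of that group.

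Mmp16 had 18.5, 13.9 and 16.0 CPM at 12 h of osteogenesis, against 4.3, 4.88 and 7.13 CPM at 0 h, and the groups did not overlap (log2 fold change 1.43, SE 0.31, adjusted p = 0.000297). It was downregulated at 72 h of adipogenesis (2.17 CPM in the mean against 5.43 CPM, adjusted p = 0.0113), a call that was lost without AD 72 h replicate 1 or 3 or without the third 0 h replicate. Mmp24 was listed at 0 in all 0 h samples and at 3.43, 3.46 and 4.76 CPM at 3 h of adipogenesis. That was at least 8.94-fold higher than a floor of 3 reads per library (adjusted p = 1.41e-07). The samples at 3 h of chondrogenesis had 0.749, 0.734 and 1.84 CPM, at least 2.55-fold above the same floor, but this call was lost without the third of them.

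The ADAMTS enzymes that cut aggrecan and versican include the members with most calls against 0 h after Serping1. Adamts1, which cuts both proteoglycans, was at 8703, 8679 and 8337 CPM at 0 h and lower in all 27 samples of the other groups. At 3 h of adipogenesis the samples were at 673, 656 and 722 CPM, 12.5 times lower by the means (log2 fold change -3.65, SE 0.14, adjusted p = 1.18e-18). The level stayed there, at 920, 749 and 713 CPM at 12 h and 905, 868 and 492 CPM at 72 h. In osteogenesis it went from 5488, 5393 and 6250 CPM at 3 h (-0.59, under the threshold) to 1504, 1520 and 1468 CPM at 12 h (-2.52, adjusted p = 2.95e-15). In chondrogenesis the samples had 4541, 5032 and 4669 CPM at 3 h (-0.85, under the threshold), 2899, 3056 and 2683 CPM at 12 h (-1.58, adjusted p = 2.06e-10) and 954, 967 and 923 CPM at 72 h (-3.18, adjusted p = 1.2e-17). The adipogenic samples were thus below those of both other lineages already at 3 h, with log2 differences of 3.06 (SE 0.14, adjusted p = 3.67e-16) from osteogenesis and 2.79 (SE 0.14, adjusted p = 7.12e-16) from chondrogenesis.

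Adamts4, an aggrecanase, separated the lineages in another way. At 0 h its level was 53.3, 56.0 and 47.9 CPM. In osteogenesis it was downregulated to 6.58, 6.0 and 8.99 CPM at 3 h (log2 fold change -2.72, SE 0.15, adjusted p = 6.29e-15) and 5.12, 6.88 and 7.16 CPM at 12 h (-2.86, adjusted p = 1.02e-15), and at 72 h it overlapped 0 h again with 63.0, 55.9 and 73.8 CPM. Chondrogenic samples had 23.7, 20.7 and 20.5 CPM at 3 h (-1.24, adjusted p = 6.9e-08), then 226, 292 and 220 CPM at 12 h (2.20, adjusted p = 8.84e-13) and 433, 412 and 390 CPM at 72 h (2.95, adjusted p = 4.21e-16). At 12 h the chondrogenic mean was 38.5 times the osteogenic one (log2 difference 5.06, SE 0.15, adjusted p = 2.57e-21). In adipogenesis the values at 3 and 12 h did not pass the threshold, and at 72 h Adamts4 was upregulated to 147, 146 and 108 CPM (1.33, SE 0.15, adjusted p = 2.5e-08).

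Adamts8, another member of the group with weaker aggrecanase activity, was upregulated early and lost late. From 12.2, 9.33 and 11.4 CPM at 0 h it rose to 118, 113 and 168 CPM at 3 h of osteogenesis (log2 fold change 3.47, SE 0.35, adjusted p = 1.5e-09), 94.4, 86.4 and 91.0 CPM at 3 h of adipogenesis (2.94, adjusted p = 3.93e-08) and 57.2, 69.0 and 62.1 CPM at 3 h of chondrogenesis (2.42, adjusted p = 1.12e-06). None of these 9 samples overlapped 0 h. At 12 h it was highest in osteogenesis, with 183, 198 and 184 CPM (3.99, adjusted p = 5.66e-11), and at 16.6, 21.8 and 19.8 CPM in chondrogenesis (0.77, not called). The adipogenic samples at 12 h had 63.9, 20.3 and 13.5 CPM, and without the first of them the log2 fold change went from 1.19 to 0.56 and the call was lost (adjusted p = 0.147). At 72 h the osteogenic samples were back at 11.0, 14.5 and 11.3 CPM, while the adipogenic ones had 1.78, 3.55 and 0.475 CPM (-2.17, adjusted p = 8.83e-06) and the chondrogenic ones 0.256, 1.1 and 0.222 CPM (-3.01, adjusted p = 2.5e-08).

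**Figure D3:**
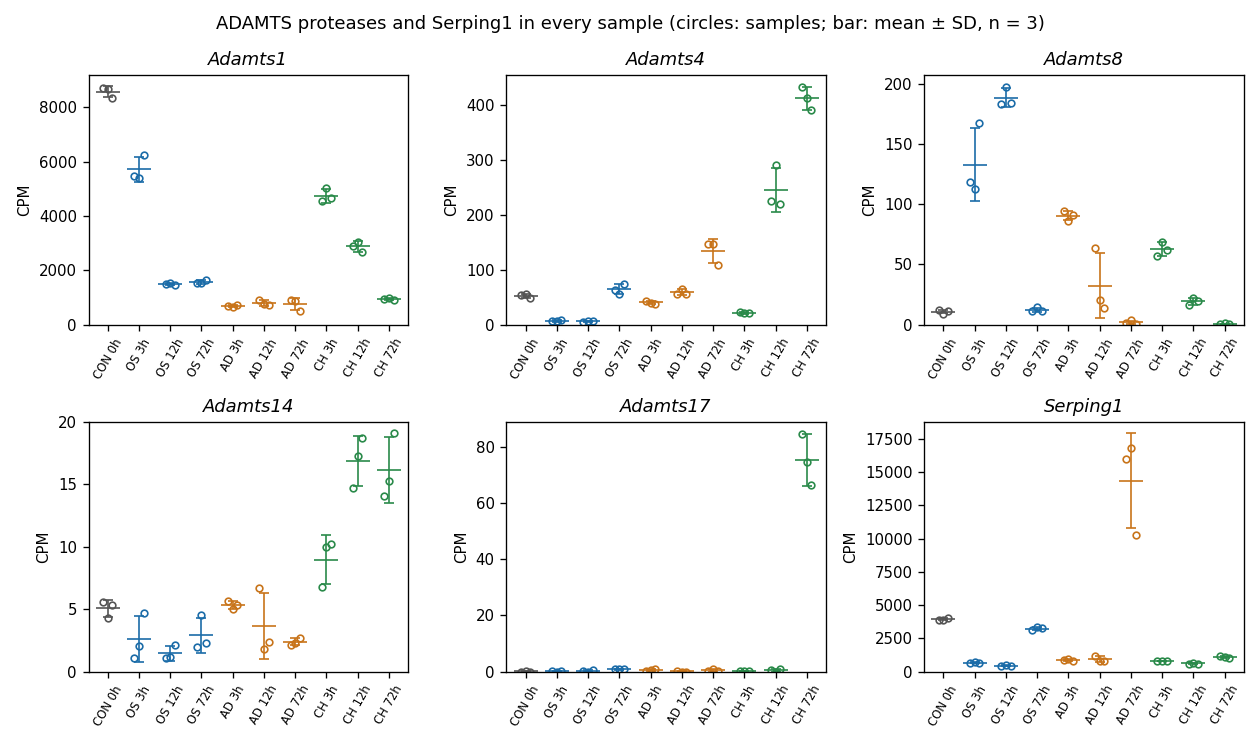
CPM in every sample (circles) for Adamts1, Adamts4, Adamts8, Adamts14, Adamts17 and Serping1, by group, with the mean and SD of 3 samples, each panel on its own linear scale from 0. Adamts17 stands above 60 CPM at 72 h of chondrogenesis and near 0 in the other 9 groups, and Serping1 is highest at 72 h of adipogenesis.

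Adamts17, an ADAMTS linked to fibrillin microfibrils and to short stature in people, was the most one-sided member. Its samples at 72 h of chondrogenesis had 84.6, 74.5 and 66.5 CPM, and no other sample exceeded 1.055 CPM. Pooled reads were 966 there and 2 at 0 h, a ratio of 775.9 with a counting interval of 214.2 to 6416. Adamts17 passed the filter through the samples of this group alone, so its log2 fold change of CPM + 1, 6.13, is a description and no p is given. At the same time point its samples had 0.746, 0.78 and 1.055 CPM in osteogenesis and 0.178, 0.887 and 0.158 CPM in adipogenesis.

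Adamts14, which trims the amino end of procollagens, had 5.59, 4.32 and 5.31 CPM at 0 h. It was upregulated to 14.7, 17.3 and 18.7 CPM at 12 h of chondrogenesis (log2 fold change 1.56, SE 0.32, adjusted p = 0.000268) and 14.1, 15.2 and 19.1 CPM at 72 h (1.49, adjusted p = 0.000427). At 12 h of osteogenesis it was downregulated to 1.05, 1.2 and 2.13 CPM (-1.32, SE 0.32, adjusted p = 0.0012). No sample of these 3 groups overlapped those of 0 h. Adamts3, the other procollagen N-proteinase listed, never exceeded 1.78 CPM and was not called against 0 h.

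Of the ADAM sheddases, Adam17 releases tumour necrosis factor and ligands of the EGF receptor from the cell surface. It was lower than 0 h in every sample of the other groups, but passed the threshold only at 72 h of osteogenesis and adipogenesis. Its samples had 1215, 1215 and 1164 CPM at 0 h, 464, 461 and 512 CPM at 72 h of osteogenesis (log2 fold change -1.32, SE 0.11, adjusted p = 1.03e-10) and 464, 433 and 631 CPM at 72 h of adipogenesis (-1.25, adjusted p = 2.42e-10). The means at 3 h were already 715 CPM in osteogenesis, 617 CPM in adipogenesis and 711 CPM in chondrogenesis. At 12 h they were 1024, 680 and 691 CPM in the same order. At 72 h of chondrogenesis the samples had 1004, 1012 and 959 CPM, and the difference from osteogenesis at that time passed the test (1.05, SE 0.11, adjusted p = 6.72e-09). The adipogenic call fell under the threshold of size after quantile normalization (-0.84) or with equal sums over the listed genes (-0.99). Adam30 was upregulated at 3 h of adipogenesis, with 2.21, 3.15 and 1.64 CPM against at most 0.303 CPM at 0 h (1.40, SE 0.32, adjusted p = 0.000594). Adam9, another sheddase, had 618 to 676 CPM at 0 h and was not called in any comparison.

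The lysosomal cathepsin genes Ctsb, Ctsd and Ctsf were lower than 0 h in every sample of 3 and 12 h, and their fold changes at those times stayed below 0 under every rescaling tried. Ctsf, a cysteine cathepsin, was downregulated in 5 of the 6 groups of the first 12 h. Its level went from 378, 341 and 341 CPM at 0 h to 136, 120 and 117 CPM at 12 h of osteogenesis (log2 fold change -1.50, SE 0.15, adjusted p = 8.69e-10), and to 157, 163 and 171 CPM at 3 h of adipogenesis (-1.10, adjusted p = 3.83e-07). At 12 h of adipogenesis, with 172, 179 and 202 CPM, it missed the threshold of size (-0.94). At 72 h no lineage was called, and the samples had 506, 556 and 616 CPM in osteogenesis, 468, 439 and 316 CPM in adipogenesis, and 422, 405 and 384 CPM in chondrogenesis.

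Ctsd, the aspartic cathepsin, had 2182, 2147 and 2377 CPM at 0 h and was downregulated at 12 h of osteogenesis (972, 1053 and 1026 CPM; log2 fold change -1.13, SE 0.15, adjusted p = 1.3e-07) and at 3 and 12 h of chondrogenesis (-1.07 and -1.02). The call at 12 h of chondrogenesis was lost without the third 0 h replicate or without CH 12 h replicate 1. Ctsb, a cysteine cathepsin that also acts outside the cell, had 4777, 4868 and 5068 CPM at 0 h, 2479 to 3252 CPM in all 18 samples of 3 and 12 h, and 5645 to 8537 CPM in the 9 samples of 72 h. These 3 ranges did not overlap, yet no change against 0 h reached a log2 size of 1, the values lying between -0.96 and 0.76. After median-ratio scaling the values of 3 and 12 h lay between -0.92 and -1.29, and 4 of the 6 passed. From 12 to 72 h Ctsb was upregulated by 1.24 in osteogenesis, 1.43 in adipogenesis and 1.39 in chondrogenesis (SE 0.08 each).

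Ctsz, a carboxypeptidase of the cathepsin family, went the other way. The 0 h samples had 117, 113 and 104 CPM, and at 72 h it was downregulated in osteogenesis (41.8, 45.6 and 44.5 CPM; log2 fold change -1.32, SE 0.29, adjusted p = 0.000626) and adipogenesis (38.5, 49.5 and 11.6 CPM; -1.94, adjusted p = 2.74e-06). In chondrogenesis at that time it had 72.8, 72.1 and 65.8 CPM (-0.66, not called). Ctsl, a lysosomal cysteine cathepsin with 1376 to 3156 CPM over all 30 samples, was not called in any comparison.

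**Figure D4:**
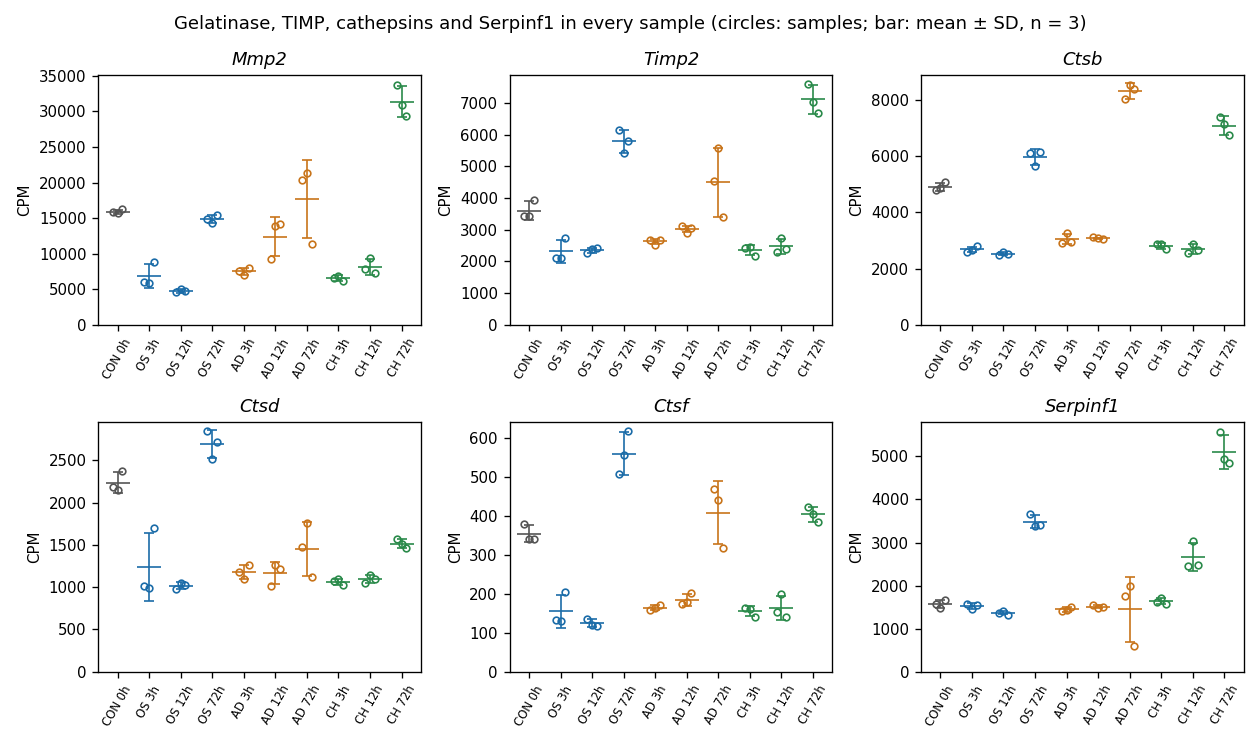
CPM in every sample (circles) for Mmp2, Timp2, Ctsb, Ctsd, Ctsf and Serpinf1, by group, with the mean and SD of 3 samples, each panel on its own linear scale from 0. Ctsb and Ctsf are lower in all samples of 3 and 12 h than in those of 0 and 72 h, Ctsf with 117 to 204 CPM against 316 to 616 CPM, and Serpinf1 rises at 72 h of osteogenesis and chondrogenesis.

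Among the serpins, Serping1, which encodes the inhibitor of complement component C1 and of plasma kallikrein, was differentially expressed in 8 of the 9 comparisons with 0 h. Its samples had 3899, 3874 and 4044 CPM at 0 h and were downregulated at 3 and 12 h of every lineage, as far as 445, 465 and 441 CPM at 12 h of osteogenesis (log2 fold change -3.13, SE 0.14, adjusted p = 2.14e-17). At 3 h they had 661, 687 and 662 CPM in osteogenesis (-2.55), 850, 942 and 828 CPM in adipogenesis (-2.17) and 794, 811 and 763 CPM in chondrogenesis (-2.32). At 72 h the lineages parted. Osteogenic samples had 3096, 3332 and 3254 CPM (-0.29, not called), chondrogenic ones stayed low at 1194, 1113 and 1052 CPM (-1.82, adjusted p = 3.63e-12), and adipogenic ones had 16030, 16800 and 10270 CPM (1.83, SE 0.14, adjusted p = 3.91e-12). The adipogenic mean at 72 h was 12.8 times the chondrogenic one (log2 difference 3.65, SE 0.14, adjusted p = 1.83e-19). The part of the lower BMSC and higher blood cell marker sums at 72 h of adipogenesis in this level was not tested.

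Serpinf1, which encodes the antiangiogenic pigment epithelium-derived factor, was upregulated at 72 h of osteogenesis and of chondrogenesis. From 1579, 1466 and 1662 CPM at 0 h it went to 3665, 3386 and 3410 CPM in osteogenesis (log2 fold change 1.15, SE 0.23, adjusted p = 0.000189) and 5562, 4932 and 4838 CPM in chondrogenesis (1.70, adjusted p = 3.56e-07). The osteogenic value was 0.94 after quantile normalization. In adipogenesis at 72 h, replicates 1 and 2 had 1762 and 1988 CPM and replicate 3 had 585 CPM, so the group lay on both sides of 0 h. Serpinh1, the collagen chaperone HSP47, is a serpin without inhibitor activity. It was upregulated at 12 h of chondrogenesis, with 2611, 2762 and 2894 CPM against 1199, 1034 and 1389 CPM (1.20, SE 0.29, adjusted p = 0.00147), but by less than 1 after quantile normalization (0.80), after 2 other rescalings (0.96 and 0.97) and in edgeR (0.93).

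Of the remaining serpins, Serpinb9, an intracellular inhibitor of granzyme B, was downregulated at 72 h of chondrogenesis, from 87.8, 85.5 and 90.1 CPM to 19.5, 18.4 and 19.4 CPM (log2 fold change -2.15, SE 0.17, adjusted p = 6.65e-12). Serpini1, neuroserpin, which inhibits tissue plasminogen activator, was upregulated at 12 h of adipogenesis with 2.78, 6.63 and 8.33 CPM against at most 1.86 CPM at 0 h (1.35, SE 0.33, adjusted p = 0.00186). Serpinc1, antithrombin, had 2.43, 2.05 and 1.64 CPM at 3 h of adipogenesis and Serpinb6b had 1.33, 2.2 and 1.93 CPM there, each against less than 0.5 CPM in every 0 h sample (1.24 and 1.31). Both sat close to the level of a few reads and passed the filter only through this group, so the values are a description. Not called against 0 h were Adam9, Adam11, Adam32, Adamts3, Ctsb, Ctsh, Ctsl, Serpinf2 and Timp2. Of these, Adam9, Adam11, Adam32, Adamts3, Ctsh and Serpinf2 fall outside the rule for named genes and were named to account for every tested member.

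**Figure D5:**
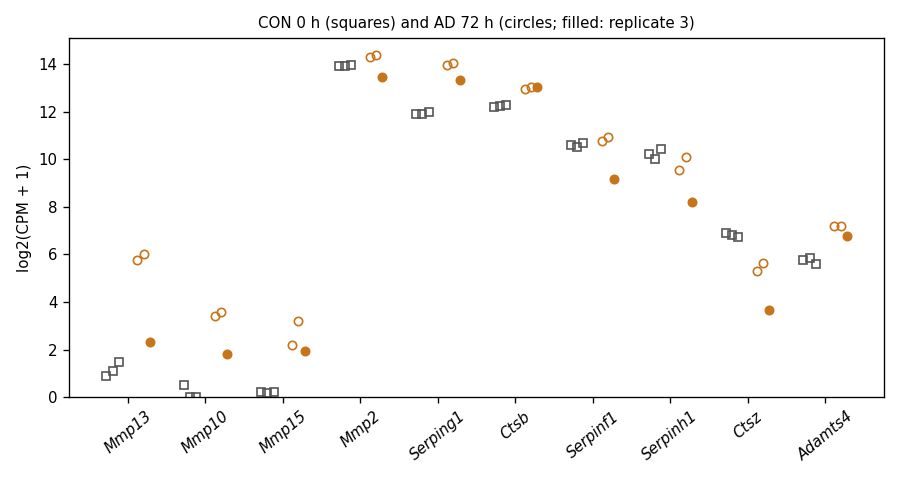
Log2(CPM + 1) of 10 members in the 0 h samples (squares) and the samples at 72 h of adipogenesis (circles, filled for replicate 3). Replicate 3 is the lowest circle for all of these genes but Ctsb. It still lies above every square for several of them, among them Mmp13, Mmp10, Mmp15, Adamts4, Ctsb and Serping1.

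At 72 h of adipogenesis, replicate 3 lay more than 1 log2 unit from the mean of the other samples in 9 tested members, namely Adam30, Adamts8, Ctsh, Ctsz, Mmp10, Mmp13, Serpinb9, Serpinf1 and Serpinh1. Replicate 2 did so in 7, among them Mmp15 (8.16 CPM against 3.56 and 2.85 CPM) and Mmp24, and replicate 1 in Mmp13 and Serpinf2. Without the 3 libraries that stood apart, 10 members were called against 0 h at this time. The log2 fold change of Ctsz became -1.33, that of Adamts8 -1.74 and that of Serping1 2.06, and the call on Mmp16 was lost.

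The lineages were also compared with each other at the same time, without the 0 h samples. At 3 h, 5 members differed between osteogenesis and adipogenesis (7.66% of all tested genes did), 3 between osteogenesis and chondrogenesis (7.31%), and 5 between chondrogenesis and adipogenesis (9.35%). Adamts1 was lower and Mmp24 higher in adipogenesis than in both other lineages at this time. Serpinc1, also among these counts, passed the filter only through its values at 3 h of adipogenesis, so its calls there are a description.

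At 12 h, 8 members differed between osteogenesis and adipogenesis (13.2%), 4 between osteogenesis and chondrogenesis (16.0%) and 7 between chondrogenesis and adipogenesis (13.6%). Adamts4 differed in all 3 pairs and was ordered chondrogenesis, adipogenesis, osteogenesis. Adamts8 and Mmp16 were higher in osteogenesis than in each of the other lineages, for Mmp16 by 1.52 (SE 0.31, adjusted p = 0.000263) over adipogenesis and 1.58 (SE 0.31, adjusted p = 0.000126) over chondrogenesis. Mmp2 was lower in osteogenesis than in adipogenesis by 1.35 (SE 0.18, adjusted p = 5.69e-07). Ctsh, an aminopeptidase named here after its values were seen, had 2.49, 2.21 and 1.67 CPM in adipogenesis and at most 0.634 CPM in the other lineages. Serpini1 was likewise highest in adipogenesis, but its difference from osteogenesis (-1.15) was lost without AD 12 h replicate 3 or OS 12 h replicate 1.

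At 72 h the counts were 9 between osteogenesis and adipogenesis (13.7%), 9 between osteogenesis and chondrogenesis (19.6%) and 10 between chondrogenesis and adipogenesis (25.5%). Mmp13, Mmp10 and Serping1 were highest in adipogenesis against both other lineages. Adamts4 and Adamts14 (and Adamts17, as a description) were highest in chondrogenesis against both, and Serpinb9 was lowest there, though its difference from adipogenesis (-1.16) was lost without AD 72 h replicate 2. The chondrogenic excess of Serpinf1 over adipogenesis was 2.01 (SE 0.23, adjusted p = 1.14e-08), while the call on its osteogenic excess was lost without AD 72 h replicate 3. Without that library the adipogenic differences of Adamts1 from osteogenesis and of Ctsz and Serpinh1 from chondrogenesis were lost as well.

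From 12 to 72 h, 8 members were upregulated (9.67% of all tested genes) and 5 downregulated (13.5%) in osteogenesis, while adipogenesis had 6 (5.18%) and 2 (10.8%), and chondrogenesis 7 (7.98%) and 4 (5.23%). The members' median log2 change was 0.14, 0.18 and 0.50 in the 3 lineages, against -0.01, -0.18 and -0.11 for all tested genes. Ctsb and Ctsf were upregulated in all 3, the latter by 2.16 (SE 0.15) in osteogenesis, 1.12 (SE 0.15) in adipogenesis and 1.31 (SE 0.15) in chondrogenesis. Adamts8 and Ctsz were downregulated in all 3, Adamts8 by log2 changes of -3.84, -3.36 and -3.78 (SE 0.35 each). Mmp2 and Timp2 were upregulated in osteogenesis and chondrogenesis, Mmp2 by 1.64 (SE 0.18) and 1.94 (SE 0.18). Serping1 was upregulated in osteogenesis by 2.84 (SE 0.14) and in adipogenesis by 3.94 (SE 0.14).

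Other genes of pericellular proteolysis and matrix processing were taken from a list of 61, of which 27 were listed and 14 passed the filter. These include plasminogen activators, procollagen processing enzymes, proprotein convertases, cystatins and receptors that clear proteases. They also include Lox, Loxl2 and Loxl3, which encode collagen cross-linking enzymes and not proteases or inhibitors. The list was chosen with earlier results of these data known, so its counts are descriptions. Of the 14, 12 were called against 0 h at least once, where 53.2% of all tested genes were, and the shares of all tested genes called in each comparison are those given for the members. From 3 to 12 to 72 h the upregulated ones numbered 2, 2 and 4 in osteogenesis, while adipogenesis had 2, 1 and 1 and chondrogenesis 3, 4 and 4. The downregulated ones numbered 0, 3 and 1, then 0, 1 and 3, and then 1, 1 and 3 in the same order. Plau, the urokinase that activates plasminogen, was upregulated in all 9, most at 3 h of adipogenesis with 181.8, 175.8 and 203 CPM against 1.72, 1.53 and 3.49 CPM (log2 fold change 5.90, SE 0.33, adjusted p = 7.05e-15). At 72 h of adipogenesis its samples had 16.2, 22.2 and 3.485 CPM, and replicate 3 lay within the 0 h values. Lrp1, the endocytic receptor that clears many proteases and inhibitor complexes, had 13630, 13610 and 14400 CPM at 0 h and was downregulated at 12 h of osteogenesis (-1.37, SE 0.14) and 3 h of chondrogenesis (-1.03, SE 0.14). Cpe, carboxypeptidase E, was downregulated at 72 h of all 3 lineages, by log2 changes of -2.40, -2.15 and -2.25 (SE 0.15 each). The collagen cross-linking enzyme gene Loxl3 was upregulated at 72 h of osteogenesis (1.91, SE 0.19) and downregulated at 72 h of adipogenesis (-1.22, SE 0.19). Pcolce, which enhances procollagen C-proteinases, and Cstb, a cystatin that inhibits cysteine cathepsins, were not called in any comparison with 0 h.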

How the data were processed

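RNA-seq of 30 samples was used. Per the labels' processing notes the tools were Trimmomatic, HISAT2 and StringTie; versions and genome build were not given in the sources used here. The methods name an mRNA library, the labels a Ribo-Zero step. The authors deposited values named FPKM, but within each sample 100% were whole multiples of 1 step (within 0.05 read), so the deposited values were read as CPM and the step gave the reads and their total. Listed genes held 38.9 to 71.4% of each total. Adamts14, Serpinh1 and Serpinc1 were summed over 2 rows. No adjustment for strand or paralogs was made.

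The 4363 genes that reached 1 CPM in 3 or more samples were tested on log2(CPM + 1) with limma 3.58.1 in R 4.3.3 (trend, 1 model of 10 groups, no covariates), in 21 comparisons, with Benjamini-Hochberg adjustment within each and the study's thresholds. Figures were drawn with matplotlib 3.10.9, and tables with pandas 2.3.3 in Python 3.11.15 (scipy 1.17.1 for counting intervals). Any member called against 0 h could be named, as could a fixed set of known members and any called gene of the list of 61. The members and lists were chosen with earlier results of these data known. Each result was recomputed after quantile normalization, with median-ratio scaling or equal sums over the listed genes, without the filter, with 0.1 as the pseudocount, on the 6 samples of a comparison, with a replicate block, with each replicate left out, with edgeR 4.0.16 (quasi-likelihood, TMM) on the recovered reads and, as a choice made after seeing the data, with 3 libraries left out together. Scripts were tested on simulated data. Replicates of all 30 same-group pairs differed beyond counting noise. A planned search of protein motifs was not run.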

Additional observations from a re-analysis of the deposited data

Results flagged for a closer look

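In 5 cases a member was differentially expressed against 0 h in opposite directions in groups that also differed from each other in a direct test. Adamts14 was at -1.32 at 12 h of osteogenesis and 1.56 at 12 h of chondrogenesis on the log2 scale, a difference of -2.88 (SE 0.32, adjusted p = 1.94e-08). For Adamts4 the same groups stood at -2.86 and 2.20 and differed by -5.06 (SE 0.15, adjusted p = 2.57e-21). Serping1 stood at -1.82 at 72 h of chondrogenesis and 1.83 at 72 h of adipogenesis, a difference of -3.65 (SE 0.14, adjusted p = 1.83e-19). Within adipogenesis, from 12 to 72 h, Adamts8 went from 1.19 to -2.17, a difference of -3.36 (SE 0.35, adjusted p = 3.17e-09), and Serping1 from -2.11 to 1.83, a difference of 3.94 (SE 0.14, adjusted p = 3.48e-20). The 12 h side of the Adamts8 case rested on AD 12 h replicate 1, without which its log2 fold change against 0 h was 0.56 (adjusted p = 0.147).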

How the results depend on the processing

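Of the 67 calls of members against 0 h, 56 were kept in all of the alternatives listed in the methods other than the joint removal of 3 libraries, and none changed sign. A pseudocount of 0.1, no filter and the replicate block each kept all 67, edgeR 66, the 6 samples of a comparison 64 of 65, median-ratio scaling and equal sums 63 each, quantile normalization 59, and leaving out single replicates 393 of 402. Leaving out the 3 libraries apart together kept 18 of 20.

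The counts of called members moved by more than 1.5 times as follows, and the cause was not tested. At 3 h of osteogenesis 5 became 11 with a pseudocount of 0.1 and with edgeR, 8 with quantile normalization and with median-ratio scaling, and 9 with equal sums. At 12 h of osteogenesis 9 became 15 with edgeR, and at 72 h 5 became 8 with a pseudocount of 0.1 and with edgeR but 3 with quantile normalization. At 12 h of adipogenesis 5 became 8 with quantile normalization and with equal sums and 9 with edgeR, and at 12 h of chondrogenesis 7 became 12 with edgeR. With edgeR the 5 members that differed at 3 h between osteogenesis and adipogenesis, and the 5 between chondrogenesis and adipogenesis, became 3 each. The 4 between osteogenesis and chondrogenesis at 12 h became 7 with a pseudocount of 0.1 and with edgeR.

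Leaving out single replicates gave, in order of time, 5 to 7, 9 and 4 to 5 members in osteogenesis, 9, 5 to 6 and 9 to 12 in adipogenesis, and 7 to 8, 6 to 8 and 9 to 11 in chondrogenesis. Between osteogenesis and adipogenesis the counts were 4 to 5, 6 to 11 and 7 to 9 at the 3 times, between osteogenesis and chondrogenesis 2 to 4, 4 to 5 and 9 to 10, and between chondrogenesis and adipogenesis 4 to 7, 6 to 10 and 10 to 12. From 12 to 72 h they were 12 to 13, 8 to 9 and 10 to 12, and for the other proteolysis genes 11 to 13. A group left with 2 samples was assumed to vary like the others.

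The replicate numbers did not pair the samples, since deviations from the group means correlated at -0.226 to 0.16 between same-numbered samples, so the block is a check only. With the replicate block the 5 members at 3 h of osteogenesis and the 10 at 72 h of adipogenesis were again 5 and 10. For members near 3 reads a change was not detectable at this depth rather than absent, and for genes such as Adam10 that are listed near 0 although widely expressed the cause was not tested.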
